A study of Mus musculus with 2 samples.

Results

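The genes of 7SK RNA and of the P-TEFb system were followed in MEL cells, a mouse erythroleukemia line in which dimethyl sulfoxide sets off erythroid differentiation. The 8 genes were chosen by name: *Rn7sk*, the RNA itself; *Larp7*, *Mepce*, *Hexim1* and *Hexim2*, whose proteins bind it; and *Cdk9*, *Ccnt1* and *Ccnt2*, which encode the kinase and its cyclins. They are 8 of 69691 rows of the gene tables, and their 36 transcripts are among 129984 transcript rows. Both libraries are total RNA from MEL cells kept in 2% dimethyl sulfoxide for 5 days. The stated size range is 300 to 350 bases, and no untreated group was analysed here. The labels number the libraries as biological replicates 1 and 2 but give both the same biosample record. Nothing says that they came from separate cultures, so a difference between these 2 samples may be technical. The binomial p-values below cover counting error only, and no p-value here measures the spread between cultures.

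Summed estimated counts were 65109488 in replicate 1 and 90856320 in replicate 2. All 11 erythroid markers examined, the globin genes, *Gata1* and *Klf1* among them, reached 1 TPM in each library (TPM is a level per length, scaled to the same total in every library). Of the markers of other cells, the megakaryocyte gene *Pf4* alone was, and the other 5 summed to 0.12 and 0.06 TPM. As these are bulk samples, fewer cells of a type and less RNA per cell cannot be told apart.

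7SK is an abundant nuclear RNA made by RNA polymerase III. MEPCE caps its 5′ end and LARP7 binds its 3′ end, and together they keep it stable. On that scaffold HEXIM1 or HEXIM2 holds P-TEFb, the pair of CDK9 and cyclin T1 or T2, with its kinase inhibited. Released P-TEFb phosphorylates RNA polymerase II and the pausing factors NELF and DSIF, which lets paused polymerase move into the gene body. HEXIM1 was named for its induction by hexamethylene bisacetamide, which like dimethyl sulfoxide makes MEL cells differentiate.

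The mouse *Rn7sk* gene (ENSMUSG00000065037.1) lies on the minus strand of chromosome 9 at 78175303 to 78175633 (mm10) as a single exon of 331 bases, annotated as a miscellaneous RNA. Its first 110 bases are shown because the 5′ hairpin to which HEXIM binds lies here. The capitals mark each GATC (GAUC in the RNA), at positions 13, 42 and 64 counted from the 5′ end. These 3 are the only ones in the RNA.
Rn7sk 1 to 110: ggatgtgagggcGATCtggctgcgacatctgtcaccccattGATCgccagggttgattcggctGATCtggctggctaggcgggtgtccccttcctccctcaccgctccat

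The genome also holds many shortened copies of 7SK, so the 3′ end is shown beside the 2 best-matched copies that carried reads. From base 200 onwards, capitals mark the aligned match to *Rn7sk* and, in *Rn7sk*, the part shared with *Gm24447*. *Gm24447* lies on chromosome 15 at 93234363 to 93234700 (plus strand), and *Gm26315* on chromosome 2 at 7076094 to 7076414 (minus strand). All sequences are from the GENCODE M21 transcripts on the same assembly.
Rn7sk 200 to 331: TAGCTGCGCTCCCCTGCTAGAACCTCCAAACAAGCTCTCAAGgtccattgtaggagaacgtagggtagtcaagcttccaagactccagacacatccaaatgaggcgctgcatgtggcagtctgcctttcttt
Gm24447 200 to 338: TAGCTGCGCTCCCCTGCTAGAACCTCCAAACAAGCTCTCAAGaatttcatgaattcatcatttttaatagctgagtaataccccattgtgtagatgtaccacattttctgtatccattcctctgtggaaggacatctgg
Gm26315 200 to 321: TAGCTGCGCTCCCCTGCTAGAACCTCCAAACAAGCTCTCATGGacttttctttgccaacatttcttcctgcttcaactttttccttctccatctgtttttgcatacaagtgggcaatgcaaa

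*Gm24447* is identical to *Rn7sk* over its first 241 bases and first differs at position 242, after which the copy runs into unrelated sequence. *Gm26315* is 99.6% identical over 238 bases. A blastn search with matches of 100 bases or more found 209 such genes with a row in the tables, of which 206 are miscellaneous RNA genes and 3 are protein-coding genes that contain a match. The median identity was 74.3%. Of the 209 matches, 139 ended within 10 bases of position 241 of *Rn7sk*, and 5 reached its last 10 bases.

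**Figure D1:**
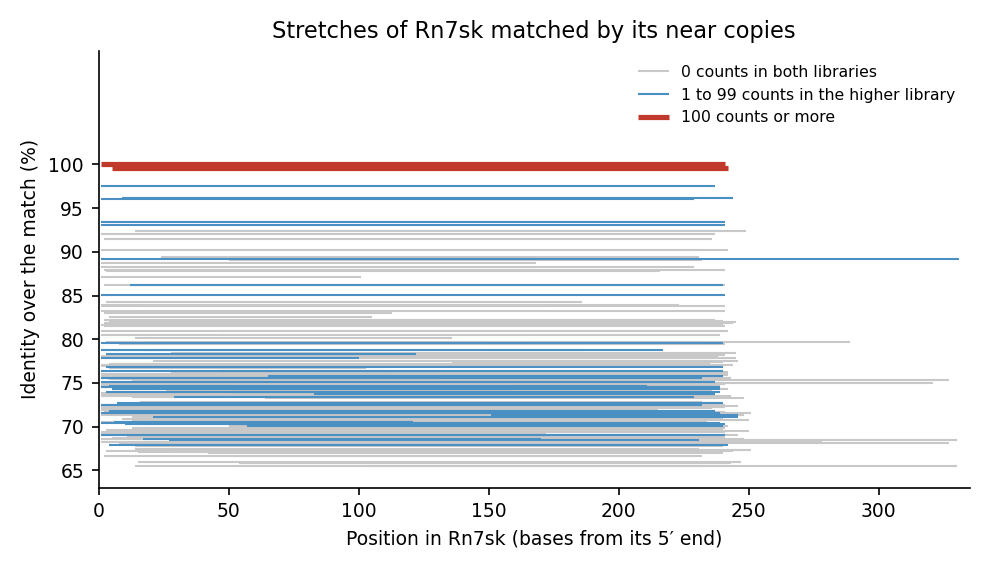
Each horizontal line is 1 miscellaneous RNA gene: the stretch of Rn7sk it matches (x axis, bases from the 5′ end) at its percent identity (y axis), coloured by its estimated counts. Most lines stop near position 241, and the red lines, Gm24447 and Gm26315, are the most nearly identical copies.

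*Rn7sk* was among the most abundant transcripts of both libraries. Its estimated count was 3269039 in replicate 1 and 4991671 in replicate 2. That was 5.02% (exact 95% interval 5.016% to 5.026%) and 5.49% (5.489% to 5.499%) of all counts, intervals that cover counting error only. In TPM the level was 76568 and 73149, or 74859 ± 2418 (SD, n = 2), which ranked 3 among all genes in each library. Above it were the signal recognition particle RNAs *Rn7s1* and *Rn7s2*. In replicate 1 their posterior SDs from the authors' estimation were 40.4% and 39.9% of their counts. The rank therefore depends on an uncertain split of reads between them. The share of counts was thus higher in replicate 2 and the TPM higher in replicate 1.

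TPM divides by an effective length, here 177 bases in replicate 1 and 170 in replicate 2 against 331 annotated bases. For a long transcript such as *Hexim1*, of 3495 bases, the same correction of 154 and 161 bases is small. The level of *Rn7sk* therefore depends on this correction more than those of its partners. The 331 bases of *Rn7sk* lie within the stated size range of 300 to 350 bases, but the corrections of 154 and 161 bases lie below it. What that range refers to was not established, and its effect on the share of *Rn7sk* was not tested.

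Few reads were assigned to the copies. *Gm26315* held 869 and 1004 estimated counts, with posterior SDs from the authors' estimation of 45.6 and 43.8. *Gm24447* held 241 and 258, with SDs of 22.0 in each library. The other matched genes with 100 counts or more were the protein-coding *Zfp101* (1263 and 1796), where the match is antisense, and *Alkbh6* (565 and 706). At 158 of the 209 copies no read was assigned in either library, at depths where 3 counts correspond to a CPM of 0.0461 and 0.0330. The 206 miscellaneous RNA copies together held 1424 and 1586 counts, so *Rn7sk* held 99.96% and 99.97% of the family's counts. The posterior SD of *Rn7sk* itself was 50.4 and 48.3 counts. The split between *Rn7sk* and its best copies remains uncertain for the copies, whose levels are low beside it.

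The protein-coding genes of the complex were far below the RNA per length. All 7 reached 1 TPM in each library, as did 56.0% of the 15275 genes tested between the libraries, noncoding genes included. All protein-coding genes together held 13.5% and 12.9% of summed TPM. Levels of these genes would therefore be higher on a scale of protein-coding genes alone. *Rn7sk* had 130 and 133 times the reads of the 7 genes summed (25159 and 37431 counts), and 1889 and 2079 times their summed TPM (40.53 and 35.18).

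*Mepce* (chromosome 5, 137781906 to 137787655, minus strand), the capping enzyme of 7SK, was the highest of the 7. It had 4677 and 6951 counts and 11.18 and 9.99 TPM, or 10.6 ± 0.841 (SD, n = 2), above 87.1% and 87.5% of the protein-coding genes with a TPM above 0 (13276 and 12819 genes). *Larp7* (chromosome 3, 127536714 to 127553349, minus strand, 13 exons in M21), the La-family protein that holds the 3′ end, had 1149 and 1751 counts and 2.76 and 2.54 TPM (2.65 ± 0.156). It lay above 55.5% and 56.8% of those genes. The 2 proteins that stay on 7SK thus stood at different transcript levels, with *Larp7* at 0.247 and 0.254 of *Mepce*. A 460-base retained-intron form carried 32.6% and 35.2% of the *Mepce* TPM, and the mean ratio was 0.379 from protein-coding transcripts alone and 0.414 from counts per longest transcript.

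The inhibitors followed. *Hexim1* (chromosome 11, 103116231 to 103119725, plus strand), an intronless gene, had 3118 and 5885 counts and 3.87 and 4.41 TPM (4.14 ± 0.382). Its paralog *Hexim2* lies 12703 bases downstream on the same strand (103132429 to 103139876) and had 489 and 963 counts and 1.57 and 1.81 TPM (1.69 ± 0.170). The level of *Hexim2* was 0.406 and 0.410 of that of *Hexim1*, a ratio that differed little between the libraries.

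*Cdk9* (chromosome 2, 32705784 to 32713076, minus strand), the kinase, had 2326 and 3005 counts and 6.67 and 5.14 TPM (5.91 ± 1.08). Of the cyclins that activate it, *Ccnt1* (chromosome 15, 98538689 to 98570923, minus strand) had 8370 and 11686 counts and 9.38 and 7.21 TPM (8.30 ± 1.53). *Ccnt2* (chromosome 1, 127774164 to 127808061, plus strand) had 5030 and 7190 counts and 5.10 and 4.08 TPM (4.59 ± 0.721). Over all transcripts, the TPM of *Ccnt1* was 1.84 and 1.77 times that of *Ccnt2*. From protein-coding transcripts alone the ratio was 3.19 and 2.27 (2.73 ± 0.651), and varied more between the libraries.

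In order of TPM the genes ran *Mepce*, *Ccnt1*, *Cdk9*, *Ccnt2*, *Hexim1*, *Larp7*, *Hexim2*. *Ccnt2* and *Hexim1* changed places between the libraries and were not separated. The other neighbours kept their order, with ranges that did not overlap, though for *Cdk9* and *Ccnt2* by little: the lower value of *Cdk9* was 5.14 and the higher value of *Ccnt2* 5.10.

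**Figure D2:**
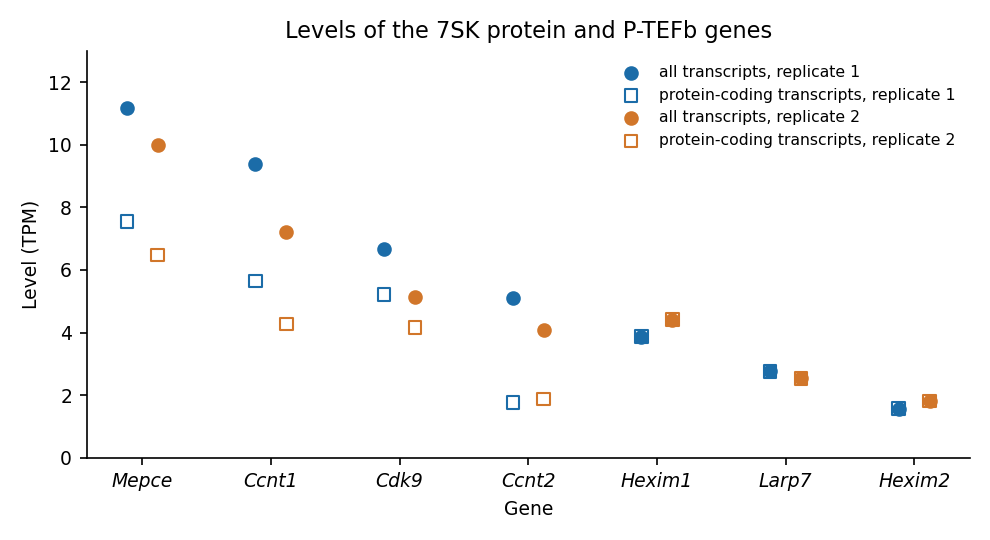
Level in TPM (y axis) of each protein-coding gene of the complex (x axis) in replicate 1 (blue) and replicate 2 (orange), over all transcripts (filled circles) and over protein-coding transcripts alone (open squares). Mepce is highest at 11.18 and 9.99 TPM and Hexim2 lowest at 1.57 and 1.81, and the open squares of Ccnt2 lie at 1.77 and 1.88.

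Ratios between partners showed how inhibitor and kinase transcripts stood to each other. *Hexim1* to *Cdk9* was 0.580 in replicate 1 and 0.858 in replicate 2 (0.719 ± 0.196). The summed *Hexim* genes to the summed cyclin T genes gave 0.376 and 0.551 (0.463 ± 0.124). Both ratios were higher in replicate 2 and varied more between the libraries than *Hexim2* to *Hexim1* (0.408 ± 0.00336) or *Larp7* to *Mepce* (0.251 ± 0.00522). *Rn7sk* to *Larp7* was 27742 and 28799. *Hexim1* to *Cdk9* depended on which transcripts and lengths were used: it was 1.68 ± 0.446 (SD, n = 2) from counts per length of the longest transcript, and 0.743 and 1.06 (0.900 ± 0.223) from protein-coding transcripts alone. For *Cdk9* the longest transcript is a retained-intron form of 3565 bases. The summed *Hexim* to cyclin T ratio became 0.755 per longest transcript and 0.735 and 1.01 (0.873 ± 0.196) from protein-coding transcripts.

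The genes differed in how much of their level came from transcripts annotated as protein-coding. Every transcript of *Larp7*, *Hexim1* and *Hexim2* in the tables is of that class. *Hexim2* was led by a transcript of 1910 bases (ENSMUST00000062530.4), with 49.4% and 57.0% of the gene's TPM, followed by one of 1221 bases (ENSMUST00000107037.3) with 33.2% and 25.0%. In *Cdk9* protein-coding transcripts held 78.2% and 81.3%, mostly as 2 forms: ENSMUST00000120105.3, of 1565 bases, with 40.1% and 45.8%, and ENSMUST00000009699.11, of 1733 bases, with 37.5% and 33.1%.

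For *Mepce* the protein-coding share was 67.4% and 64.8% of TPM but 94.2% and 93.9% of counts. A 460-base retained-intron transcript (ENSMUST00000140336.1) made the difference: it had 32.6% and 35.2% of the TPM from 5.75% and 6.07% of the counts. The leading *Mepce* transcript (ENSMUST00000031740.11, 3128 bases) held 53.2% and 53.6% of TPM, and a 524-base protein-coding one (ENSMUST00000132726.1) 14.2% and 11.2%. *Ccnt1* was similar. Its 7397-base transcript (ENSMUST00000169707.3) held 40.6% and 48.4% of TPM from 79.3% and 86.6% of counts, and a 683-base processed transcript (ENSMUST00000163180.1) 17.3% and 22.7% of TPM from 2.47% and 2.94% of counts. The other *Ccnt1* transcript above 10% was protein-coding (ENSMUST00000012104.6, 2175 bases), with 19.8% and 10.8%.

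*Ccnt2* had the lowest protein-coding share of the 7, at 34.7% and 46.2% of TPM and 46.1% and 61.9% of counts. Its retained-intron transcripts summed to 47.6% and 41.0% of TPM. Those above 10% were ENSMUST00000149760.3 (17.5% and 12.5%), ENSMUST00000143513.1 (15.3% and 14.3%) and ENSMUST00000126850.3 (13.4% and 10.6%). A 7640-base processed transcript (ENSMUST00000153359.1) added 17.6% and 12.7%. No transcript led clearly in replicate 1. The protein-coding ENSMUST00000112570.1 had 18.1% of TPM there (14.0% in replicate 2), close to the 17.6% and 17.5% above. By counts the processed transcript was highest in replicate 1, with 32.1%. In replicate 2 the protein-coding ENSMUST00000027587.10 led, with 32.2% of TPM against 16.7% in replicate 1.

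Across 6058 protein-coding genes with several transcripts and 1 TPM or more, the median share of TPM on protein-coding transcripts was 86.3% in replicate 1 and 88.8% in replicate 2. The lower quartiles were 66.4% and 69.2%. *Ccnt1* and *Ccnt2* lay below the lower quartile in both libraries, *Mepce* in replicate 2, and *Cdk9* in neither. By share of counts the medians were 94.4% and 95.5%, close to *Mepce* (94.2% and 93.9%) and less far from *Ccnt1* (90.1% and 92.0%), while *Cdk9* (80.1% and 80.0%) and *Ccnt2* lay further below. By protein-coding transcripts alone the order changed. *Mepce* still led with 7.01 ± 0.757 TPM (SD, n = 2), and *Ccnt1* (4.96 ± 0.976), *Cdk9* (4.69 ± 0.735) and *Hexim1* (4.14 ± 0.382) had overlapping ranges. *Ccnt2* then had 1.83 ± 0.0778 TPM, below *Larp7*, and its range (1.77 to 1.88) overlapped that of *Hexim2* (1.70 ± 0.163; 1.58 to 1.81).

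**Figure D3:**
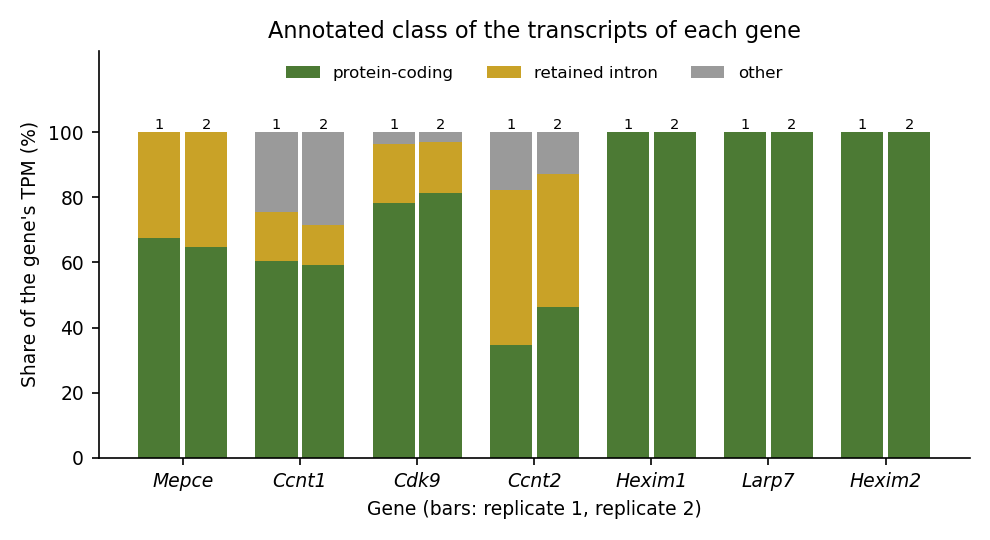
Share of each gene's TPM (y axis, percent) on transcripts annotated as protein-coding (green), retained intron (yellow) or other, which holds processed and nonsense-mediated decay transcripts (grey), with 1 bar per library. Ccnt2 has the lowest green share, 34.7% and 46.2%, while the bars of Hexim1, Larp7 and Hexim2 are green throughout.

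With 1 condition, the only comparison open was between the 2 libraries. Counts were scaled by TMM, which sets library sizes so that most genes have a ratio near 1, and compared gene by gene with an exact two-sided binomial test, which covers counting error only and compares these libraries, not conditions. A gene was called at a Benjamini-Hochberg adjusted p under 0.05 and 2-fold or more. None of the 8 genes was called, against 6.3% of the 15275 genes tested, 2.39% higher and 3.91% lower in replicate 2. That share includes genes with few counts. At a minimum of 100 counts, which all 8 exceed, 395 genes were called against 963. The share called at that minimum was not computed. By adjusted p alone 6 of the 8 passed, where 61.4% of all genes did. At this depth a small difference passes that test, so passing it says little.

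*Hexim2* and *Hexim1* differed most between the libraries. The log2 ratio of replicate 2 to replicate 1 was 0.53 for *Hexim2* (95% interval 0.37 to 0.69; 1.44-fold; exact binomial adjusted p = 9.1e-11) and 0.47 for *Hexim1* (0.40 to 0.53; 1.38-fold; adjusted p = 1.5e-48). Of all genes tested, 25.4% and 29.9% had a larger ratio in either direction. Both inhibitors were thus higher in replicate 2, by less than the 2-fold limit. Erythroid markers also stood apart between the libraries: 11 of 11 had ratios above 0 and 7 were called higher in replicate 2, with a median log2 ratio of 1.34 and summed levels of 6602 and 13753 TPM. Their part in the *Hexim* ratios was not tested.

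The other ratios were smaller. *Rn7sk* gave 0.16 (0.159 to 0.163), with an adjusted p too small for the computation to represent. *Larp7* also gave 0.16 (0.05 to 0.27, exact binomial adjusted p = 0.0077), and *Mepce* 0.12 (0.07 to 0.18, adjusted p = 2.0e-05). *Ccnt2* gave 0.07 (0.01 to 0.12, exact binomial adjusted p = 0.0237). *Ccnt1* at 0.03 (-0.01 to 0.07, adjusted p = 0.180) and *Cdk9* at -0.08 (-0.16 to -0.002, exact binomial adjusted p = 0.0717) did not pass. The median of the 8 ratios was 0.14, against -0.004 over all genes tested, and 7 of 8 were above 0, against 49.6% of all genes.

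On deposited TPM the median of all genes moved to -0.30. With that shift the ratios of *Rn7sk* (-0.07), *Larp7* (-0.12), *Mepce* (-0.16), *Ccnt2* (-0.32) and *Ccnt1* (-0.38) turned negative. Relative to the median of each scale, *Rn7sk* (0.23 on TPM and 0.16 on counts), *Larp7* (0.18 and 0.16) and *Mepce* (0.14 and 0.13) kept their direction. *Ccnt1* (-0.08 and 0.04) and *Ccnt2* (-0.02 and 0.07) did not. *Hexim1* (0.19) and *Hexim2* (0.21) remained above 0 and *Cdk9* (-0.38) below it on TPM too. Under an edgeR exact test with a dispersion common to all genes (biological coefficient of variation 0.216), 0.524% of genes were called (80 genes, with 948 at an unadjusted p under 0.05). None of the 8 was among them, with a lowest unadjusted p of 0.244 and edgeR adjusted p of 1. That dispersion was estimated from the same 2 libraries, so the difference tested is part of the spread it is set against.

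**Figure D4:**
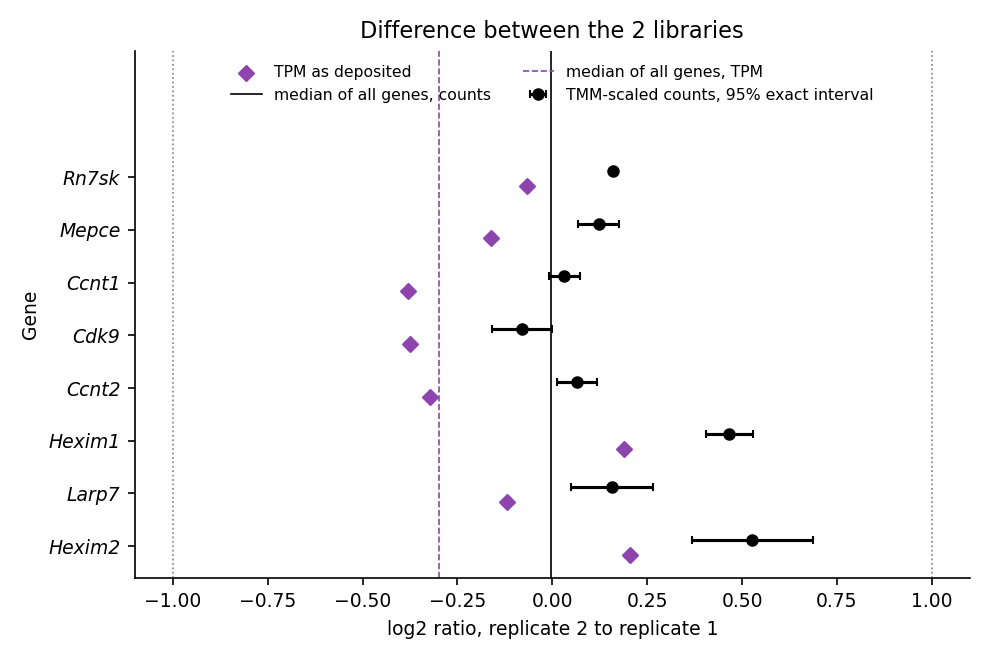
Log2 ratio of replicate 2 to replicate 1 (x axis) for the 8 genes (y axis), from TMM-scaled counts with exact 95% intervals (black) and from deposited TPM (purple diamonds), with the median of all genes on each scale as a vertical line and the 2-fold limits dotted. Hexim1 and Hexim2 lie to the right of 0 on both scales, and against the median of each scale only Ccnt1 and Ccnt2 of the 8 change side.

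The factors that act on P-TEFb around 7SK were measured alongside. Over 8 lists of other genes, 65 genes that are not among the 8 gave 63 with enough counts to test. Of these, 0 were called between the libraries by the binomial test, where 6.3% of all genes were. The 6.3% includes genes with few counts, and no share was computed at the minimum of 100 counts. The median log2 ratio of the 63 was 0.0077. Of the 65, 62 were at 1 TPM or more in both, against 56.0% of all genes tested. The median TPM of all genes tested, noncoding genes included, was 1.86 and 1.49.

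Of the lists of protein-coding genes, the highest by median was that of proteins that take P-TEFb from 7SK or occupy 7SK after its release, with all 9 at 1 TPM or more and medians of 32.6 and 19.8 TPM. *Trim28*, a corepressor that tethers the 7SK complex to promoters, had 74.1 ± 16.1 TPM (SD, n = 2). The RNA-binding *Hnrnpa2b1*, which binds released 7SK, had 47.7 ± 1.70. *Srsf2*, a splicing factor that takes part in P-TEFb release, had 44.9 ± 11.9, and *Hnrnpr* was lowest with 8.73 ± 0.834. Every gene of that list lay above *Larp7* and *Hexim1* in mean level.

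All 6 genes of NELF and DSIF, the pausing factors on which P-TEFb acts, were at 1 TPM or more, with medians of 8.80 and 7.61 TPM. *Supt4a*, the small DSIF subunit, led with 43.8 ± 1.36, followed by *Nelfb* (10.6 ± 2.89) and *Nelfcd* (8.74 ± 0.283), and *Nelfa* was lowest (4.44 ± 1.08).

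The PAF complex and SPT6, which travel with elongating polymerase, had 7 of 7 at 1 TPM or more and medians of 7.02 and 6.13 TPM. *Wdr61* had 14.7 ± 2.07, *Supt6* 8.35 ± 0.714, *Paf1* 7.73 ± 1.48 and *Cdc73* 1.33 ± 0.255. The other transcription kinases and cyclins had 9 of 9, with medians of 3.51 and 3.36 TPM. The Mediator kinase *Cdk8* was at 16.7 ± 1.37 and *Cdk12*, another kinase of the polymerase II tail, at 6.43 ± 1.40. *Ccnh* (5.48 ± 1.08) and *Cdk7* (1.19 ± 0.134), partners in TFIIH, were at unlike levels. Mean TPM of *Cdk9* (5.91) thus lay below *Cdk8* and above *Cdk7*, and differed from *Cdk12* by less than the spread between the libraries. Within each library *Cdk12* was the higher, at 7.42 and 5.44 TPM against 6.67 and 5.14 for *Cdk9*.

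**Figure D5:**
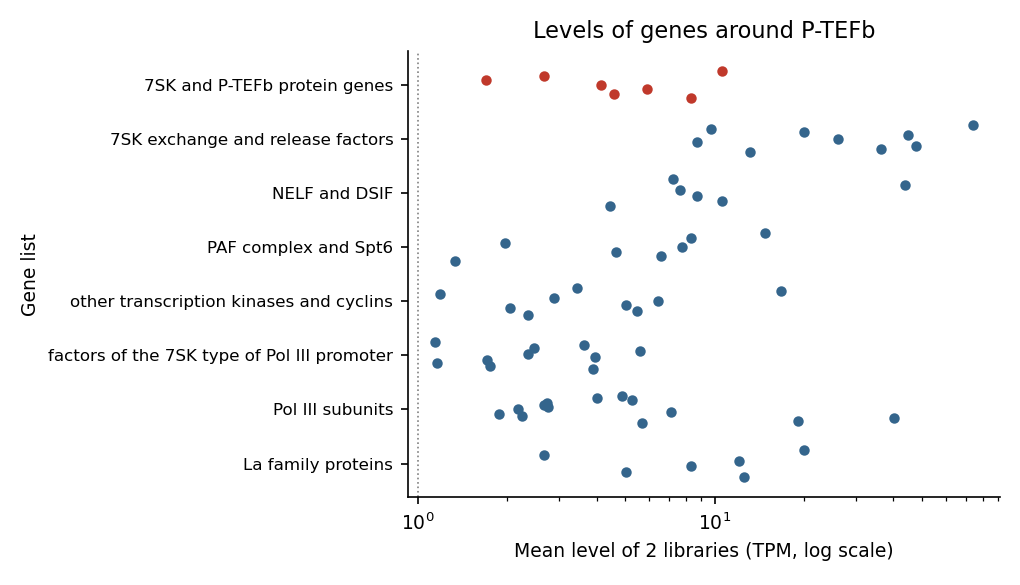
Mean TPM over both libraries (x axis, log scale, dotted line at 1 TPM) of each gene in the lists around P-TEFb (y axis), with the protein-coding genes of the complex in red; genes at 0 TPM cannot be drawn. The rightmost points are 3 exchange and release factors, Trim28 at 74.1, Hnrnpa2b1 at 47.7 and Srsf2 at 44.9 TPM, and the leftmost point is Zfp143 at 1.14 TPM.

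The genes for the machinery that makes 7SK had medians above that of all genes tested, a set that includes noncoding genes. The factors of the 7SK type of polymerase III promoter, which lies upstream of the gene, were all at 1 TPM or more (10 of 10). Their medians were 2.53 and 2.29 TPM. *Larp7*, at 2.76 and 2.54 TPM, was higher than these medians. It lay above 55.5% and 56.8% of the protein-coding genes with a TPM above 0. *Snapc4* had 5.61 ± 2.26, *Snapc2* 3.96 ± 0.396 and *Bdp1* 3.88 ± 0.750, and *Zfp143* was lowest with 1.14 ± 0.0566. Subunits of polymerase III had 13 of 13 and medians of 4.86 and 3.15 TPM. *Polr1d* (40.3 ± 5.10) and *Polr1c* (19.1 ± 0.354), which polymerase I shares, were above *Polr3c* (7.14 ± 1.49), and *Polr3b*, a catalytic subunit, was lowest at 1.88 ± 0.311.

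Among other polymerase III RNAs, the signal recognition particle RNAs *Rn7s2* and *Rn7s1* had 113745 ± 6460 and 112638 ± 6692 TPM, above *Rn7sk*. They are near-identical to each other, so the split between them is uncertain. *Rmrp*, the RNA of RNase MRP, had 18476 ± 138 TPM and a log2 ratio of counts of 0.21, and *Rpph1*, that of RNase P, 2821 ± 112 TPM and 0.14. The log2 ratios of *Rn7s1* (0.34) and *Rn7s2* (0.33) were larger, and that of *Rn7sk* was 0.16. *Rny1* had 12 and 19 counts and *Rny3* 0 in both, with an effective length of 0, so no TPM can be read for either.

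In the La family, to which *Larp7* belongs, 6 of 7 genes were at 1 TPM or more. *Ssb*, the La protein itself, which binds new polymerase III transcripts, had 20.08 and 19.83 TPM, the translation regulator *Larp1* 15.58 and 9.51, and *Larp4b* 13.63 and 10.59. *Larp6* had 0 counts in both libraries. *Larp7* was thus the lowest of the La genes that had reads.

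By similarity of level over the 2 libraries, as Euclidean distance of log2 (TPM + 1), *Rn7sk* had no close neighbour. The nearest were the snoRNA *Gm25835* (distance 0.718; 60481 and 47181 TPM), *Rn7s1* (0.843) and *Rn7s2* (0.862), and 0 genes lay within 0.1. *Cdk9* had 100 protein-coding genes within 0.1, led by *Coq2* (0.00235), *Rad50* (0.00885) and *S1pr2* (0.0207). *Hexim1* had 49, led by *Wdr48* (0.0185), *Klf10* (0.0258) and *Fam213a* (0.0264). With 2 points a gene, such likeness is common and describes level alone.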

How the data were processed

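Total RNA was sequenced from 2 libraries of 1 group. The deposited tables hold, per gene and per transcript, estimated counts, TPM, FPKM, posterior means and SDs, and percent of the gene's TPM (isoform percent), made by the authors on mm10 with GENCODE M4, per the file headers and deposited notes. The quantifier, like the aligner, was not given in the sources used here. Rows were matched by Ensembl gene ID to GENCODE M21 (42462 of 43346 Ensembl gene rows), and 35 of the 36 transcripts of the 8 genes have the same length there; *Larp7* has 1880 bases in the tables and 2121 in M21. Estimated counts were rounded to whole numbers and scaled by TMM (edgeR 4.0.16). Genes with 10 counts or more in a library were tested with an exact binomial test (scipy 1.17.1), with 0.5 added for ratios. The test was run on simulated counts with counting error alone, so that check does not cover the spread between these libraries. Copies of 7SK were sought with blastn 2.17.0 (e-value 1e-05). Alternatives included DESeq2 1.42.0 size factors and edgeR's exact test. The members and lists were chosen with earlier results of these data known, and 1 list is not reported here. Named were all 8 genes with transcripts at 10% or more of TPM, the 3 highest and the lowest of each list, called members, the 3 nearest genes by level, and copies with 100 counts or more. Coordinates are 1-based. The strand setting of the counting was not established, so reads of overlapping antisense genes may be mixed.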

Additional observations from a re-analysis of the deposited data

How the results depend on the processing

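With 2 libraries of 1 condition, TPM depends on effective length and on what fills the total, and counting error understates the spread. No paired analysis was possible because there is 1 group. Genes called numbered 395 with a minimum of 100 counts, 2413 at 1.5-fold, and 80 with edgeR's exact test, against 963. None of the 8 members was called in any of these. Fewer genes enter at 100 counts. The 1.5-fold limit is looser under the same test, and edgeR's test allows for a dispersion that the binomial test does not.

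Mean TPM over protein-coding transcripts alone, an alternative chosen after seeing the data, was 7.01 for *Mepce*, 4.69 for *Cdk9*, 4.96 for *Ccnt1* and 1.83 for *Ccnt2*, and the ratios became 2.73 for *Ccnt1* to *Ccnt2*, 0.379 for *Larp7* to *Mepce* and 0.873 for summed *Hexim* to cyclin T. Counts per longest transcript gave 1.68 for *Hexim1* to *Cdk9*, 0.293 for *Hexim2* to *Hexim1*, 1.70 for *Ccnt1* to *Ccnt2*, 0.414 for *Larp7* to *Mepce*, 16177 for *Rn7sk* to *Larp7* and 0.755 for summed *Hexim* to cyclin T. Posterior mean TPM gave 0.420 for *Hexim2* to *Hexim1*.

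At 5 TPM the lists held 4 of the 8 members, 4 PAF, 2 kinase, 0 promoter factor and 4 polymerase III genes. Leading transcripts held 91.4% of the counts of *Mepce*, 71.2% of *Hexim2* and 83.0% of *Ccnt1*. The *Ccnt2* transcript with the highest mean share of TPM, ENSMUST00000027587.10, held 37.5% of counts on average, but led in replicate 2 alone.

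Log2 ratios changed sign on TPM as deposited, on TPM rescaled to protein-coding genes and, where given as a last value, on protein-coding transcripts: *Rn7sk* -0.066 and -0.0060; *Larp7* -0.12, -0.060 and -0.12; *Mepce* -0.16, -0.10 and -0.22; *Ccnt1* -0.38, -0.32 and -0.40; *Ccnt2* -0.32 and -0.26. *Hexim1*, *Hexim2* and *Cdk9* kept their sign under every alternative run. The median of all genes was itself at -0.30 on deposited and -0.24 on rescaled TPM, and relative to the former *Rn7sk*, *Larp7* and *Mepce* kept their direction. TPM also divides by effective length, which was 3702 and 4046 bases for *Ccnt1* and 4093 and 4402 bases for *Ccnt2*. For *Hexim1* it was 3341 and 3334 bases. The part of length in the change of side of *Ccnt1* and *Ccnt2* was not tested.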

Other observations

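Other genes lie inside or beside those of the complex. The span of *Larp7* holds 5 microRNA genes on the opposite strand, *Mir302a* to *Mir302d* and *Mir367*, and that of *Cdk9* holds *Mir2861* on the same strand. All 6 had 0 counts and an effective length of 0 in both libraries, so the tables cannot show them. The antisense gene *9330020H09Rik* within the span of *Ccnt1* had 189 and 196 counts.

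Several of the genes have a close neighbour on the other strand. *Zgrf1* lies 139 bases from *Larp7* and had 2220 and 2740 counts, and *Zcwpw1* lies 142 bases from *Mepce* and had 241 and 148. Beside *Ccnt2*, at 71 bases, *2900009J06Rik* had 43 and 97. The lincRNA *C920006O11Rik* lies 280 bases from *Rn7sk* on the other strand and had 8 and 6 counts, beside 3269039 and 4991671 for *Rn7sk*.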
